A study of Mus musculus with 9 samples.

Results

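Cytosolic ribosomal protein genes were followed across 3 groups of sorted olfactory sensory neurons. They were taken from the deposited gene tables by symbol, as every gene named Rpl, Rps or Rplp with a number, plus Rpsa, leaving out 319 copies whose symbols end in a -ps or -rs form and 10 Rps6k kinase genes. This gave 94 of 55291 genes. By role, 43 encode proteins of the 60S (large) subunit, 3 the P stalk of the large subunit, and 31 proteins of the 40S (small) subunit. These 77 are called the core genes below. A further 9 are paralogues with their own names, 7 are other copies, and 1 (Rps19bp1) matches by symbol but encodes an S19-binding protein rather than a ribosomal protein. The rule itself uses symbols and no measured value, but it was set with earlier results of these data known.

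Polyadenylated RNA was sequenced from neurons that mice had labelled through a tagged odorant receptor allele. A mature olfactory neuron transcribes a single odorant receptor gene, and an internal ribosome entry site placed after that gene lets the same messenger yield a fluorescent protein. The 3 groups carried Olfr1507-IRES-GFP, Olfr73-IRES-GFP or Olfr160-IRES-mCherry, and are called Olfr1507, Olfr73 and Olfr160 after the tagged receptor. Cells of the main olfactory epithelium high for the reporter and low for the dead-cell dye DAPI were collected by flow cytometry, with 3 libraries per group and 9 in all. The labels name no treatment that separates the groups, and the sources used here give no age, sex or strain. The design text mentions duplicates where 3 libraries per group were analysed. The reporter differed with the receptor, since both GFP groups were set against 1 mCherry group, so receptor and reporter cannot be told apart where Olfr160 is compared. Whether libraries within a group derive from different mice is not stated, so every p-value reflects only how these 9 libraries vary, which may be technical.

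Ribosomal proteins are the protein part of the particle that reads messengers. In the cell each is needed in about equal amounts, their messengers are among the most abundant of growing cells, and many carry a pyrimidine run at their 5' end, the terminal oligopyrimidine (TOP) tract, through which the kinase complex mTORC1 and the RNA-binding protein Larp1 control their translation. Mature olfactory neurons no longer divide and devote much of their messenger pool to receptor and signalling proteins. The epithelium around them renews itself from dividing basal cells and also holds supporting (sustentacular) and gland cells.

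The TOP tract is shown first, because it is the sequence feature the family is known for and it can be read directly at annotated start sites. Each line below is a 30-base window of RefSeq promoter sequence, build GRCm38.p6 (mm10), 5' to 3' on the gene's own strand, with 20 bases before the annotated start and 10 from it. Capitals mark a C followed by at least 4 further C or T that begins within 5 bases of the start. Rps24, Rps18, Rps6 and Rps26, of the small subunit, hold such a tract in the windows shown.

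Rps24, chr14:24490658-24490687, plus strand: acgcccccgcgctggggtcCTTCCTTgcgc
Rps18, chr17:33955656-33955685, minus strand: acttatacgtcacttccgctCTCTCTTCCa
Rps6, chr4:86857358-86857387, minus strand: gggttaagcggaagtcgggcCTCTTTTTCg
Rps26, chr10:128626497-128626526, minus strand: agcgggtcgggcaagccgccggatCCTCTT

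The windows of Rpl5, Rpl4 and Rps4x, which encode core proteins, and of the paralogue Rpl7l1 hold no such tract at the RefSeq start. The start depends on the annotation. GENCODE M21 begins the Rpl4 gene at base 64173375, inside its window, and the letters from that base do form such a tract. It begins the Rpl5 gene at base 107900502, ahead of the window shown. These windows are shown because their genes were higher in Olfr1507 in at least 1 comparison below. All but Rps4x changed sign there when libraries were scaled to olfactory transduction genes, a list that was itself mostly higher in Olfr1507. The windows do not pair a tract with a direction. Rps6 passed in no comparison, and Rps12, Rps16 and Rps19, which were lower in Olfr1507 than in Olfr160, hold no tract.

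Rpl5, chr5:107900508-107900537, plus strand: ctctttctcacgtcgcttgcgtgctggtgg
Rpl4, chr9:64173367-64173396, plus strand: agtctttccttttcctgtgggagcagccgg
Rps4x, chrX:102189382-102189411, minus strand: aaagtctgaggctgggcggagcaacccagg
Rpl7l1, chr17:46782647-46782676, minus strand: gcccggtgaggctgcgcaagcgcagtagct

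The RefSeq table held a promoter for 69 of the 94 genes. Of 57 core genes in it, 27 (47.4%) had a start-site tract, against 21.2% of all 27025 genes in the table. In the 300 bases from 250 before to 50 after the start, read on both strands, CCGGAAG, the core of an ETS-family site, occurred in 42.1% of core genes and in 9.93% of all genes. The YY1-type sequence AAGATGGC occurred in 8.77% and 3.19%, and TATAAA in 10.5% and 15.7%. These matches describe letters in annotated windows, and a start annotated a few bases off moves a tract out of the window, so that none of them is a site by itself. By the RefSeq start used here, Rpl4 and Rpl5 count as genes without a tract. By the edgeR test described in the next paragraph, of the 27 core genes with a tract 7 (25.9%) were lower in Olfr1507 than in Olfr160, against 8 (26.7%) of the 30 without one, both near the 27.7% of all tested genes, with median log2 fold changes of -0.47 and -0.34. In Olfr73 against Olfr160, 2 (7.41%) and 8 (26.7%) were lower, beside 10.5% of all tested genes, with medians of -0.56 and -0.58. In Olfr1507 against Olfr73, 0 and 4 were higher and 1 of each set was lower, beside 14.5% and 19.9%, and of the 4 only Rps4x kept its sign with scaling to olfactory transduction genes. The difference between the sets was not tested.

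The libraries held 17212807 to 36230606 expected counts (the quantifier's estimates of reads per gene), of which 48647 to 103005 fell on the 94 genes. A level is given in CPM (counts normalised for depth and composition of a library) or, where genes are compared with each other, TPM (scaled by transcript length as well). Tests came from edgeR's quasi-likelihood fit on the whole table, with Benjamini-Hochberg adjusted p below 0.05 called. Of the 94 genes, 84 passed the filter on low counts among 16399 genes tested, including all 77 core genes. The 10 left untested were Rpl3l, Rpl10l and Rps12l1 at 0 counts in all libraries together, Rpl39l at 1, Rpl37rt at 2, Rps27rt at 5, Rpl32l at 9, Rps23rg1 at 12, Rps19bp1 at 31 and Rps3a3 at 54. Rpl3l is known from muscle and Rpl10l and Rpl39l from testis. A count of 0 allows a level of up to 0.0828 to 0.174 CPM per library (3 counts, counting error only).

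Markers of cell identity differed between the groups, not all in the same order, and their part in the results below was not tested. The 10 mature-neuron markers, Omp among them, were detected in every group, at 7.95% to 8.12% of all counts in Olfr1507, 5.18% to 5.30% in Olfr73 and 2.89% to 4.52% in Olfr160. The 17 sustentacular and gland markers summed to 0.0251% to 0.0427%, 0.351% to 0.623% and 1.96% to 3.53% in the same order, with none at 0. The 15 basal and progenitor markers summed to 0.00745% to 0.00827%, 0.0142% to 0.0165% and 0.0387% to 0.0704%. Pcna made up most of this sum in Olfr1507, at 1510 to 2650 counts per library, beside at most 107 for any other marker (Ezh2). Of the 13 tested, 10 (76.9%) were lower and 1 (7.69%) higher in Olfr1507 than in Olfr160, beside 27.7% and 20.7% of all tested genes. Their median log2 fold change was -6.09. Among the 15, the progenitor factor Neurog1 was at 0 in Olfr1507 and Olfr73. The 16 immune markers summed to at most 0.000571%, 0.0126% and 0.0941%. The 16 immature-neuron markers had another order, at 0.345% to 0.400% in Olfr1507, 0.522% to 0.561% in Olfr73 and 0.403% to 0.515% in Olfr160. Within Olfr160, library 3 had the lowest sustentacular and basal sums and the highest mature-neuron and immature-neuron sums. In bulk RNA, fewer cells of a type and less RNA per cell cannot be told apart.

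Ribosomal protein genes took a small share of these libraries, and it was largest in Olfr160 libraries 1 and 2. Of all counts they made up 0.252%, 0.249% and 0.267% in the Olfr1507 libraries, 0.264%, 0.234% and 0.302% in the Olfr73 libraries and 0.501%, 0.456% and 0.305% in the Olfr160 libraries. Per length, as a share of TPM, the values were 1.28%, 1.25% and 1.31% in Olfr1507, 1.37%, 1.04% and 1.45% in Olfr73, and 2.24%, 2.34% and 1.57% in Olfr160. The Olfr160 values lay above all others on both scales. Libraries 1 and 2 stood well apart, and library 3 lay just above the highest Olfr73 library. Both subunits shared this order. Genes of the 60S subunit and P stalk together took 0.804% ± 0.028, 0.808% ± 0.117 and 1.26% ± 0.242 of TPM in Olfr1507, Olfr73 and Olfr160, and the 40S genes 0.437% ± 0.0039, 0.445% ± 0.0964 and 0.742% ± 0.169 (mean ± SD, n = 3). The ratio of the 2 sums stayed between 1.62 (Olfr160 library 2) and 2.02 (Olfr73 library 2) in all 9 libraries. Proteins of the mitochondrial ribosome, a separate particle, took 0.530% ± 0.0184, 0.512% ± 0.0276 and 0.496% ± 0.0161 of TPM.

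**Figure D1:**
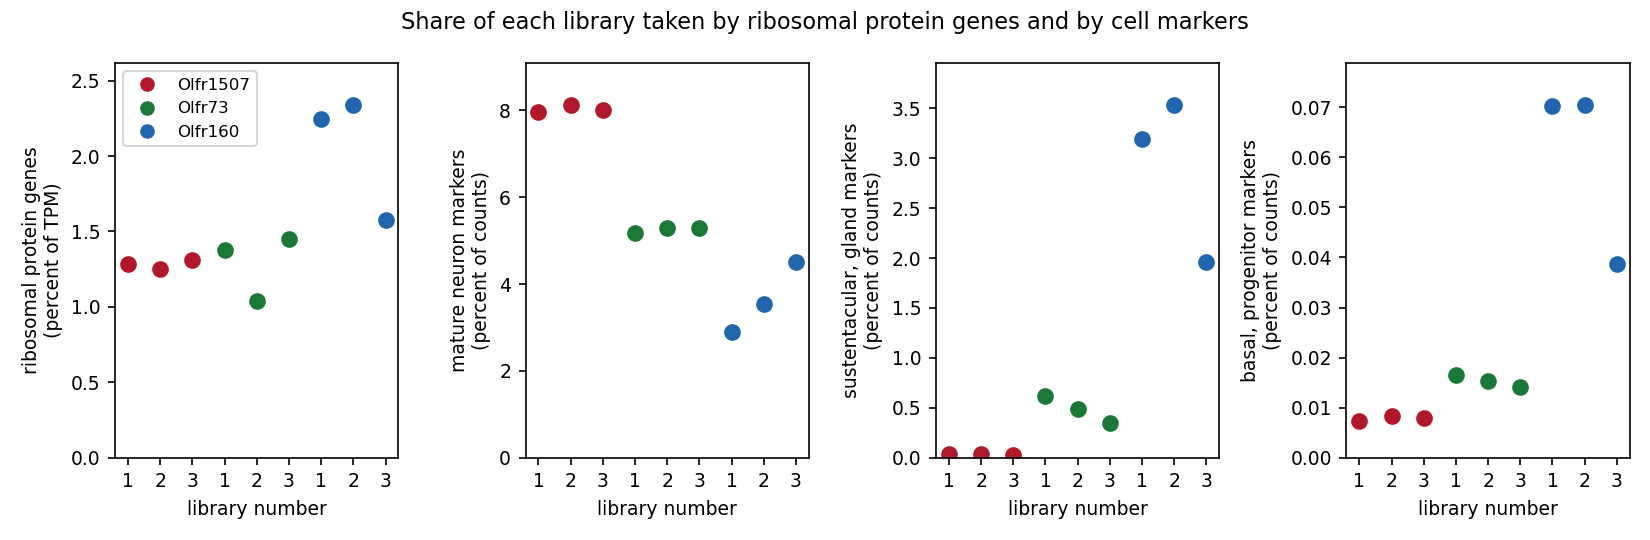
Share of each library taken by the 94 ribosomal protein genes (percent of TPM) and by markers of mature neurons, of sustentacular and gland cells and of basal and progenitor cells (percent of expected counts); each point is 1 library, numbered on the x axis and coloured by group. Ribosomal protein genes reach 2.24% and 2.34% in Olfr160 libraries 1 and 2 and 1.57% in library 3, and lie between 1.04% and 1.45% in the other 6 libraries. Pcna makes up most of the basal and progenitor sum in the Olfr1507 libraries.

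Among the core genes the levels per length spread widely. The median was 141.5 TPM over all libraries, 47 of the 77 lay above 100 TPM and 3 below 20 TPM. Near the top, Rpl4, whose loop lines the tunnel through which new protein leaves the ribosome, averaged 806 TPM, and Rps14 of the small subunit 610 TPM. Rps2, at the messenger entry side of the small subunit, was the lowest core gene at 4.94 TPM, from 3.26 TPM in Olfr73 library 1 to 8.73 TPM in Olfr160 library 1. The copies Rps3a2, at 3.81 TPM, and Rpl6l, at 2.72 TPM, were the lowest of all tested members. Rps2 shares 79.0% of its 50-base windows with annotated transcripts of 71 other genes, and its level depends on how reads from such windows were assigned.

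Transcript length went with how many counts each gene had, and CPM is not divided by length. Library preparation was set to a longer insert, per the labels, and most core messengers are short. Whether the insert length affected their counts was not tested. Across the 77 core genes normalised CPM and transcript length had a Spearman rho of 0.51, and TPM and length one of -0.074 (across genes that share libraries, as a description). The 39 shorter genes, of 334 to 644 bases, had a median of 219 counts per library, and 17 of them fell under 100 counts in at least 1 library. The 38 longer ones, of 648 to 3706 bases, had a median of 1130 counts, and 7 fell under 100. The median SE of a log2 fold change between Olfr1507 and Olfr160 was 0.29 in the shorter and 0.20 in the longer genes, so that a given change was harder to call in a short messenger. The shorter genes were still called about as often there, 15 (38.5%) against 13 (34.2%) in either direction, beside 48.4% of all tested genes.

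**Figure D2:**
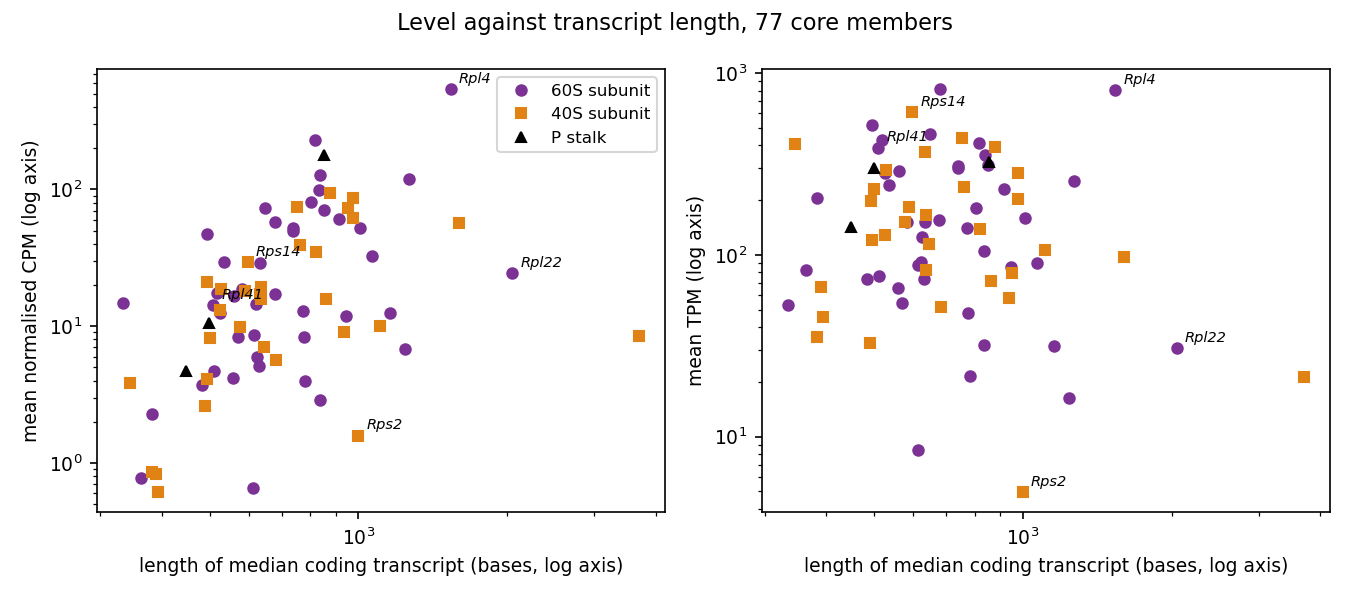
Mean normalised CPM (left) and mean TPM (right) over 9 libraries against the length of the median coding transcript for the 77 core genes, all axes logarithmic; each point is a gene, marked by subunit. CPM rises with length (rho 0.51) and TPM does not (rho -0.074), with Rpl4 near the top and Rps2 at the bottom of the TPM axis.

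Gene by gene, the 9 libraries were ordered much as their shares were. Of the 77 core genes, 36 were highest in Olfr160 library 2 and 29 in library 1, libraries that were highest for 12.8% and 19.6% of all 16399 tested genes. The lowest value lay in Olfr73 library 2 for 32 core genes and in Olfr1507 library 1 for 20, beside 6.63% and 26.3% of all tested genes. Olfr160 library 1 exceeded all 6 GFP libraries for 60 core genes and library 2 for 58, whereas library 3 lay within their range for 64. Of all tested genes 30.9% and 28.6% lay above the GFP libraries in libraries 1 and 2, and 62.1% lay within their range in library 3. Library 1 was above library 3 in 74 of 77 genes, by a median of 0.57 on the log2 scale, and library 2 in 73, by 0.54, where 53.5% and 52% of all tested genes were above library 3. So the Olfr160 group held a pair of libraries with high ribosomal protein levels and 1 library close to the GFP groups. The group means of 69 core genes were highest in Olfr160, as were those of 38.5% of all tested genes. Next came Olfr1507 for 34 of these and Olfr73 for 35, so the GFP groups had no common order.

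**Figure D3:**
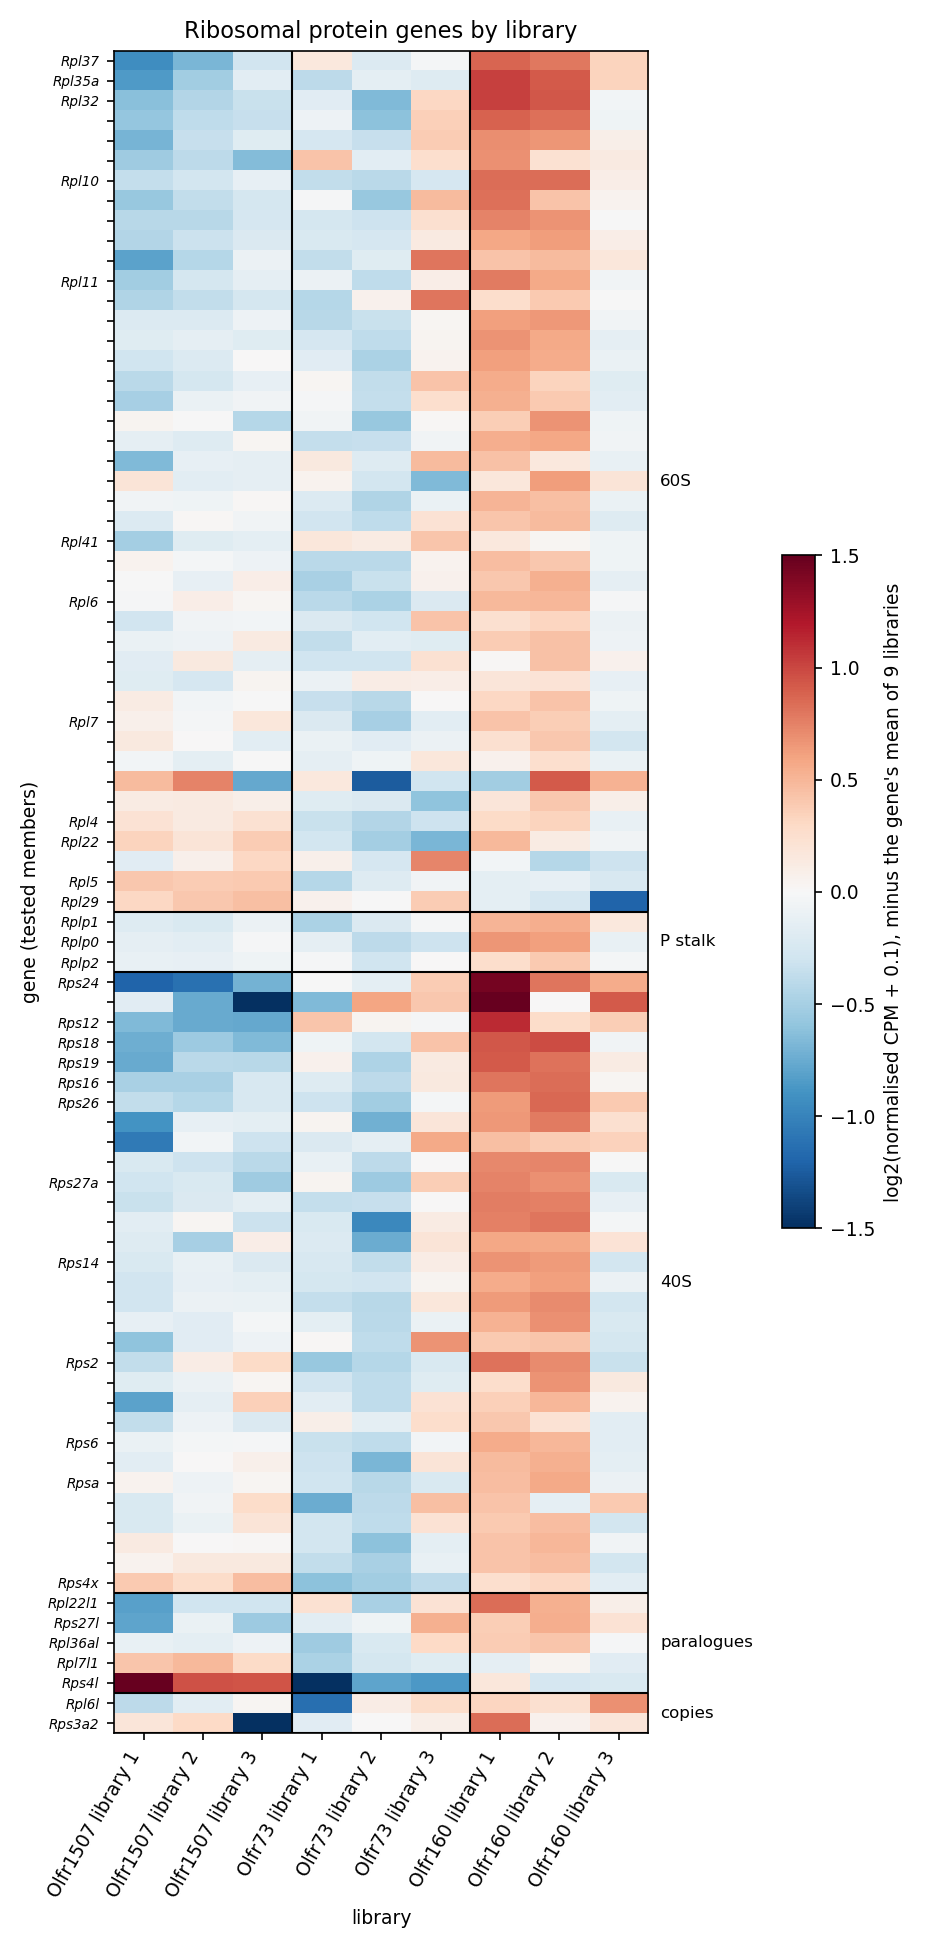
Level of each of the 84 tested genes (rows, by class, then by fold change of Olfr1507 over Olfr160) in each library (columns), as log2(normalised CPM + 0.1) minus the gene's mean of 9 libraries; genes named in the text are labelled and colours stop at -1.5 and 1.5. Olfr160 libraries 1 and 2 are red in most rows, Olfr160 library 3 is pale, and Rps4l and Rpl5 are highest in the 3 Olfr1507 libraries (over Olfr160 both turn with scaling to olfactory transduction genes, and over Olfr73 Rpl5 does).

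Of the 84 tested genes 30 differed between Olfr1507 and Olfr160, with 26 lower and 4 higher in Olfr1507, and the other 54 missed the threshold. Called in either direction were 35.7% of the 84, beside 48.4% of all tested genes. Called lower were 31% and called higher 4.76%, beside 27.7% and 20.7% of all tested genes, so the lower share was near the background. The median log2 fold change of the 84 was -0.49, against -0.14 for all tested genes. By role, 14 of 43 60S genes, 2 of 3 P stalk genes and 10 of 31 40S genes were lower, and 2 60S genes and 2 paralogues were higher. The split of 4 higher and 26 lower became 1 and 62 when only library size was used for scaling. It became 0 and 81 when libraries were scaled to olfactory transduction genes. These alternatives moved the median of all genes from -0.14 to -0.56 and to -1.70. With them 8.19% and 0.732% of all tested genes were higher and 38.2% and 84.1% lower. The transduction list itself took 9.87%, 6.83% and 4.67% of counts in Olfr1507, Olfr73 and Olfr160. Of its 20 tested genes, 17 were higher and 2 lower in Olfr1507 than in Olfr160. Scaling to it moves every gene down in Olfr1507 by a similar amount, so a sign change there is no separate finding about a gene.

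The count of lower genes rested on single libraries. Without Olfr160 library 3 it rose to 38, where 24.6% of all tested genes were lower. It fell to 11 without Olfr160 library 1 and to 10 without library 2, beside 21.6% and 21.9% of all tested genes. Without Olfr1507 library 1, 2 or 3 it was 11, 12 and 15, beside 20.8%, 21.4% and 21.8%. With all libraries the share over all tested genes was 27.7%. With Olfr160 library 3 as the only Olfr160 library, an alternative chosen after seeing the data, 3 were higher and 1 lower, and the median was -0.096. That library also had the lowest ribosomal protein share of its group and the lowest sustentacular and gland (1.96%), basal (0.0387%), immune (0.0297%), red cell (0.00936%) and glial, stromal and vessel (0.0241%) marker sums. Its mature-neuron (4.52%) and immature-neuron (0.515%) sums were the highest of the group. The part of all these in the result was not tested.

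Among the small-subunit genes called between Olfr1507 and Olfr160, Rps24 differed most. Rps28 had a log2 fold change of -1.98 but missed the threshold (edgeR adjusted p = 0.0686), with 2 to 46 counts per library. Rps24 is a 40S protein whose gene (chr14:24487125-24496959, plus strand, protein coding) is mutated in some cases of Diamond-Blackfan anaemia, and its messenger is known for short alternative 3' exons. Its level was 4.80, 5.08 and 6.81 CPM in the Olfr1507 libraries, 11.1, 10.1 and 14.6 CPM in the Olfr73 libraries and 30.3, 19.6 and 16.5 CPM in the Olfr160 libraries. The 3 groups did not overlap, and Olfr1507 was lowest. Against Olfr160 the log2 fold change was -1.99 ± 0.28 (SE; edgeR adjusted p = 0.000521), 4.0-fold lower. Against Olfr73 it was -1.10 ± 0.28 (edgeR adjusted p = 0.0145). With Olfr160 library 3 alone the first value was -1.56 (edgeR adjusted p = 0.0166), and it passed under every alternative run. The second lost its call without Olfr1507 library 1 or 2 (edgeR adjusted p = 0.0592 and 0.0545), at an adjusted p of 0.01, and on log2(TPM + 1) and log2(TPM + 0.1) (limma-trend adjusted p = 0.0663 and 0.0622). Per length Olfr1507 was again lowest, with 71.4, 72.6 and 90.4 TPM in Olfr1507, 145, 102 and 132 in Olfr73, and 198, 235 and 112 in Olfr160, where Olfr73 and Olfr160 overlapped. The gene had 89 to 629 counts per library, and 61.8% of its windows occur in other transcripts.

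Other 40S genes lower in Olfr1507 than in Olfr160 included Rps18, Rps12, Rps19, Rps16, Rps26 and Rps27a. Rps18, of the 40S head, stood at 10.3, 11.7 and 10.8 CPM in Olfr1507 and at 32.6, 33.9 and 16.5 CPM in Olfr160, with Olfr73 between at 16.3, 14.1 and 23.0 CPM. Its difference of -1.35 ± 0.29 on the log2 scale (SE; edgeR adjusted p = 0.00467) became -0.60 and lost its call (edgeR adjusted p = 0.214) with Olfr160 library 3 alone. Rps12, of the 40S beak, had only 24 to 109 counts per library, and stood at 1.46, 1.35 and 1.34 CPM in Olfr1507 against 5.25, 2.87 and 3.07 CPM in Olfr160. Rps26, which lies where the messenger leaves the small subunit, stood at 4.10, 3.96 and 4.52 CPM in Olfr1507 and 8.38, 9.78 and 7.07 CPM in Olfr160. Olfr1507 and Olfr160 did not overlap for any of the 3 genes. Rps6, the 40S protein phosphorylated by S6 kinases, did not pass in any comparison, at 88.6 ± 2.68, 77.3 ± 10.5 and 115 ± 28.8 CPM in Olfr1507, Olfr73 and Olfr160 (mean ± SD, n = 3).

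In the large subunit Rpl37, Rpl35a and Rpl32 were the genes furthest down. Rpl37 stood at 1.35, 1.62 and 2.18 CPM in Olfr1507 and at 4.96, 4.69 and 3.38 CPM in Olfr160, with 25 to 116 counts per library. Rpl35a, another Diamond-Blackfan gene, stood at 2.32, 2.94 and 3.80 CPM against 8.76, 8.17 and 5.38 CPM. Rpl32 stood at 10.3, 11.8 and 12.6 CPM against 32.6, 30.5 and 15.5 CPM. Their log2 fold changes were -1.34 ± 0.38, -1.30 ± 0.33 and -1.18 ± 0.32 (SE; edgeR adjusted p = 0.0168, 0.009998 and 0.0131). The calls were lost in 6 of 25 alternatives for Rpl37, 1 of 26 for Rpl35a and 3 of 26 for Rpl32. In each of them the Olfr1507 libraries lay below every Olfr160 library, and Olfr160 library 3 was the lowest of its group.

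Rpl5 and Rpl11, which enter the 60S particle together with 5S ribosomal RNA and when free can bind the p53 regulator Mdm2, went in different directions against Olfr160, Rpl5 higher and Rpl11 lower, and Rpl5 turned to lower with scaling to olfactory transduction genes. Rpl5 (chr5:107900502-107909005, plus strand) stood at 127, 126 and 127 CPM in Olfr1507, 71.99, 84.4 and 93.2 CPM in Olfr73 and 87.0, 88.8 and 81.8 CPM in Olfr160. All Olfr1507 libraries lay above all others, and the 2 other groups overlapped. Its log2 fold changes of 0.56 ± 0.11 over Olfr160 and 0.61 ± 0.11 over Olfr73 (SE; edgeR adjusted p = 0.00271 and 0.00308) became -1.005 and -0.23 with scaling to olfactory transduction genes. With library size alone they were 0.14 and 0.30 and did not pass. Its 3' neighbour on the other strand, Fam69a, overlaps an exon, and whether counting used strand is not known from the sources used here. The same limit holds for other members, among them Rps18 (with Vps52), Rpl32 (with Cand2) and Rps27a (with Clhc1). Rpl11 stood at 9.66, 11.6 and 12.7 CPM in Olfr1507 and 23.9, 20.6 and 13.4 CPM in Olfr160, lower by -0.77 ± 0.24 on the log2 scale (SE; edgeR adjusted p = 0.0268), a call lost when Olfr160 library 1 or 2 or Olfr1507 library 1 or 2 was left out (edgeR adjusted p = 0.0674 to 0.102).

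Rpl29 was the other core gene higher in Olfr1507 than in Olfr160, and its direction depended on how copies were counted. It stood at 22.1, 23.6 and 24.5 CPM in Olfr1507, 18.7, 17.7 and 23.2 CPM in Olfr73 and 16.1, 14.999 and 7.69 CPM in Olfr160. The log2 fold change over Olfr160 was 0.85 ± 0.26 (SE; edgeR adjusted p = 0.0229), and it became -0.26 when the counts of processed pseudogenes that share its sequence were added, and -0.79 with scaling to olfactory transduction genes. Windows of Rpl29 occur in 82 other genes, and the sum was chosen after seeing the data.

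The P stalk, which recruits elongation factors to the ribosome, is made of Rplp0, Rplp1 and Rplp2. Rplp0 stood at 157, 154 and 170 CPM in Olfr1507, 157, 132 and 139 CPM in Olfr73 and 273, 266 and 160 CPM in Olfr160. Olfr160 library 3 lay within the Olfr1507 range, and the log2 fold change of -0.54 ± 0.19 for Olfr1507 over Olfr160 (SE; edgeR adjusted p = 0.0389) became 0.011 with that library alone. Rplp1 was lower by -0.59 ± 0.21 on the log2 scale (SE; edgeR adjusted p = 0.0398), from 11.52 to 15.2 CPM in Olfr160 to 8.82 to 9.71 CPM in Olfr1507, a call lost in 9 of 26 alternatives. Rplp2 did not pass, at 4.36 ± 0.0941 and 5.47 ± 0.816 CPM (mean ± SD, n = 3).

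Compared with Olfr73, few ribosomal protein genes differed in Olfr1507. Of the 84, 6 were higher, 2 lower and 76 did not pass. That is 7.14% higher and 2.38% lower, beside 14.5% and 19.9% of all tested genes, and the median log2 fold change was -0.0019 beside -0.15 for all genes. Of the 39 shorter core genes 0 were higher and 2 (5.13%) lower, with a median of -0.22. Of the 38 longer ones 4 (10.5%) were higher and 0 lower, with a median of 0.16. The split of 6 and 2 became 3 and 5 with library size alone and 1 and 28 with scaling to olfactory transduction genes. These scalings moved the median of all genes to -0.47 and to -1.0. Over all tested genes 6.38% and 2.21% were then higher and 28.7% and 52.7% lower. Rps4l, Rps4x, Rpl22, Rpl7l1, Rpl5 and Rpl4 were higher, and Rpl22, Rpl7l1, Rpl5 and Rpl4 changed sign with the transduction scaling. Rps24 and Rpl41, the smallest ribosomal protein, were lower. Rpl41 stood at 9.82, 12.4 and 12.7 CPM against 15.9, 15.4 and 18.9 CPM in Olfr73, a difference of -0.52 ± 0.18 on the log2 scale (SE; edgeR adjusted p = 0.0486) that passed in 9 of 26 alternatives. The count of higher genes was 6 without any single GFP library and without Olfr160 library 1 or 2, and 11 without Olfr160 library 3. The count of lower genes was 0 without Olfr1507 library 1 or 2 and 1 without Olfr1507 library 3, Olfr73 library 1 or 3, or Olfr160 library 1 or 2. Over all tested genes 9.01% to 15.1% were higher and 12% to 18.7% lower in these fits.

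Rpl4 and Rps4x had their lowest levels in Olfr73. Rpl4 (chr9:64173375-64178666, plus strand) stood at 619, 586 and 626 CPM in Olfr1507, 421, 392 and 428 CPM in Olfr73 and 649, 674 and 494 CPM in Olfr160. Its log2 fold change of Olfr1507 over Olfr73 was 0.56 ± 0.13 (SE; edgeR adjusted p = 0.0088) and became -0.28 with scaling to olfactory transduction genes. Rps4x (chrX:102184941-102189394, minus strand), the X-linked gene of a 40S protein, stood at 78.4, 72.3 and 82.2 CPM in Olfr1507, 38.7, 41.4 and 45.3 CPM in Olfr73 and 71.0, 73.7 and 53.5 CPM in Olfr160. It was higher in Olfr1507 than in Olfr73 by 0.89 ± 0.14 (SE; edgeR adjusted p = 0.00161), a direction kept but no longer called, at 0.049, with the transduction scaling. For both genes the 3 Olfr73 libraries lay below all 6 others.

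Compared with Olfr160, 15 ribosomal protein genes were lower in Olfr73 by edgeR, 0 were higher and 69 did not pass. The lower share was 17.9%, beside 10.5% of all tested genes, and the background of higher calls was 7.45%. At an unadjusted p below 0.05, 1 of the 84 was higher and 41 lower, and the share over all genes was not counted there. DESeq2 called 0 higher and 35 lower, beside 8.49% and 16.5% of all genes it tested. The median was -0.56 against -0.012 for all genes. This comparison shares the Olfr160 libraries with the one above. Both scalings kept all calls on the lower side, 23 with library size alone and 54 with olfactory transduction genes. They moved the median of all genes to -0.12 and -0.73. Over all tested genes 11.8% and 32.2% were then lower and 5.23% and 0.573% higher. By role 8 60S genes, 1 P stalk gene, 5 40S genes and 1 paralogue were lower. The core genes among them, 14 in number, were all of the longer set, none of the 39 shorter genes passed, and the medians of the sets were -0.60 and -0.53. The count of lower genes was 38 without Olfr160 library 3, 3 without library 1 and 1 without library 2. Over all tested genes 9.33%, 4.97% and 3.88% were then lower. With Olfr160 library 3 alone the median of the 84 was -0.13, beside 0.0075 for all tested genes. Without Olfr73 library 1, 2 or 3 the count was 6, 4 and 10, beside 10.1%, 8.6% and 7.16% of all tested genes. It was 8 or 9 when an Olfr1507 library was left out, beside 8.8% to 9.41%. With only the 6 libraries compared it was 3, beside 8.73%.

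Rpl10, which joins the 60S subunit last and lies near the catalytic centre, was the core gene furthest down in Olfr73 among those that passed. It stood at 53.3, 52.0 and 57.8 CPM in Olfr73, 54.0, 57.1 and 63.5 CPM in Olfr1507 and 124, 124 and 73.9 CPM in Olfr160. The GFP groups overlapped and all 6 of their libraries lay below the lowest Olfr160 library. The log2 fold changes against Olfr160 were -0.98 ± 0.19 for Olfr73 and -0.88 ± 0.19 for Olfr1507 (SE; edgeR adjusted p = 0.0101 and 0.00445), and -0.45 and -0.34 with Olfr160 library 3 alone (edgeR adjusted p = 0.287 and 0.164). Of its windows 96.3% occur in other annotated transcripts. Rps26 was lower in Olfr73 by -0.94 ± 0.27 and Rpl6 by -0.70 ± 0.14 (SE; edgeR adjusted p = 0.0419 and 0.013), calls lost in 12 and 3 of 26 alternatives. Rpsa, the 40S protein also known as the laminin receptor precursor, was lower by -0.65 ± 0.16 (SE; edgeR adjusted p = 0.027), at 44.9, 41.3 and 47.3 CPM in Olfr73 against 75.8, 81.9 and 51.9 CPM, a call lost in 9 of 26 alternatives.

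**Figure D4:**
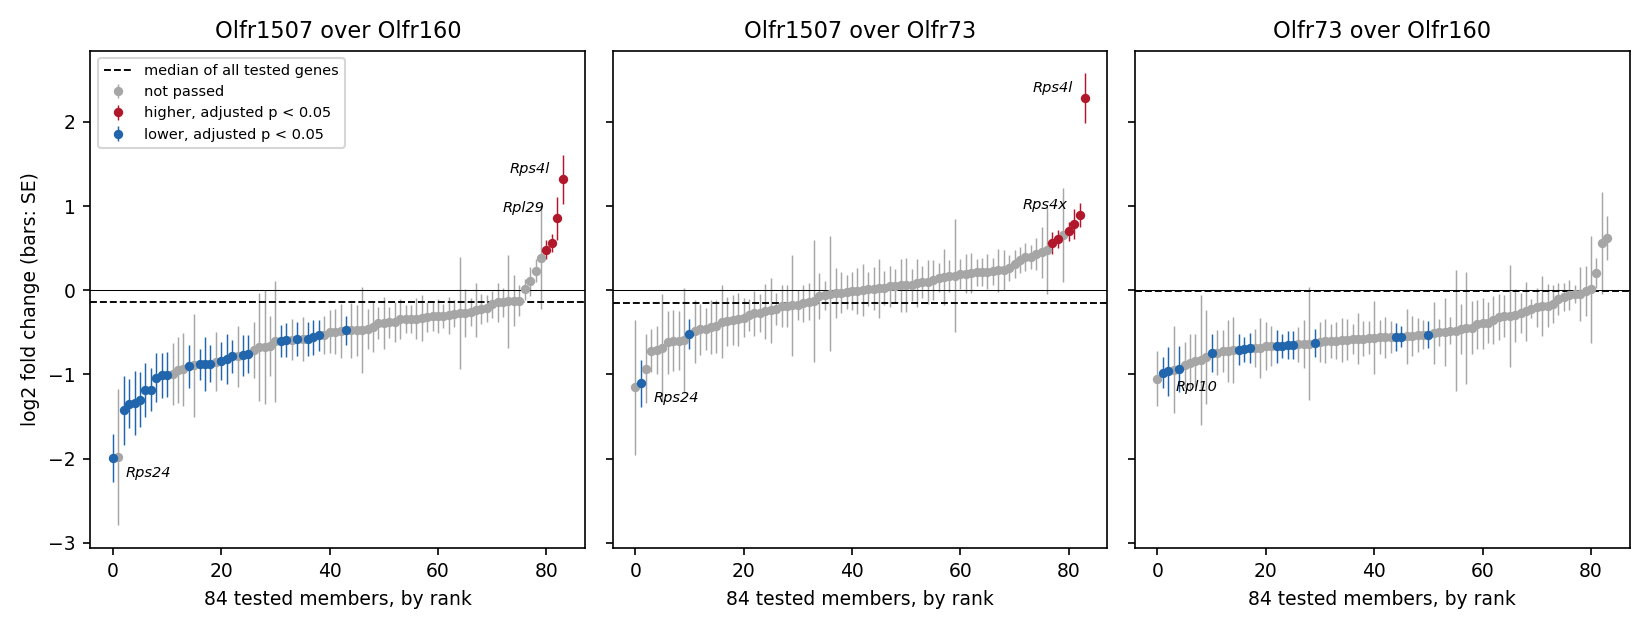
Log2 fold change (points) and SE (bars) of the 84 tested genes, by rank, in the 3 comparisons; coloured points passed an adjusted p of 0.05 and the dashed line is the median of all tested genes. The numbers called higher and lower are 4 and 26, 6 and 2, and 0 and 15 from left to right; with scaling to olfactory transduction genes Rpl29, Rpl5, Rpl7l1 and Rps4l change sign in the left panel and Rpl22, Rpl4, Rpl5 and Rpl7l1 in the middle one.

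Of the 9 paralogues 5 were tested, and 1 of them, Rps4l, had the largest fold change between Olfr1507 and Olfr73 among the 84 tested members. Rps4l (chr6:148354656-148355598, plus strand) is a retained copy of Rps4x that GENCODE M21 lists as a transcribed processed pseudogene. It stood at 32.2, 19.8 and 19.7 CPM in Olfr1507, 3.35, 5.85 and 5.55 CPM in Olfr73 and 11.46, 8.57 and 8.72 CPM in Olfr160, 3 separate ranges. It was 4.86-fold higher in Olfr1507 than in Olfr73, or 2.28 ± 0.30 on the log2 scale (SE; edgeR adjusted p = 0.000654), a call kept in all 26 alternatives. Over Olfr160 it was 1.32 ± 0.29 (SE; edgeR adjusted p = 0.00505), which became -0.28 with scaling to olfactory transduction genes, and Olfr73 was lower than Olfr160 by -0.96 ± 0.29 (SE; edgeR adjusted p = 0.0483), a call lost in 13 of 26 alternatives. Its sequence is distinct enough to be counted, since 18.0% of its windows occur elsewhere. Per length, Rps4l had 0.468, 0.323 and 0.269 times the TPM of Rps4x in Olfr1507, 0.1005, 0.180 and 0.135 in Olfr73 and 0.182, 0.137 and 0.203 in Olfr160. The ratio was therefore higher in every Olfr1507 library than in the other 6, a description of libraries without a test.

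Rpl7l1, a paralogue of Rpl7, stood at 134, 140 and 122 CPM in Olfr1507, 71.9, 83.5 and 88.4 CPM in Olfr73 and 91.1, 103 and 88.8 CPM in Olfr160. It was higher in Olfr1507 than in Olfr73 by 0.70 ± 0.11 and than in Olfr160 by 0.48 ± 0.11 (SE; edgeR adjusted p = 0.00196 and 0.00718), values of -0.14 and -1.08 with scaling to olfactory transduction genes. Rpl22 and Rpl22l1 are a pair in which the Rpl22 protein is known to limit its paralogue. Rpl22 stood at 29.7, 26.9 and 30.7 CPM in Olfr1507, 19.3, 16.5 and 14.6 CPM in Olfr73 and 33.0, 25.5 and 22.7 CPM in Olfr160. It was higher in Olfr1507 than in Olfr73 by 0.79 ± 0.18 (SE; edgeR adjusted p = 0.00884; -0.057 with the transduction scaling) and lower in Olfr73 than in Olfr160 by -0.68 ± 0.18 (SE; edgeR adjusted p = 0.0292), the latter lost in 7 of 26 alternatives. Rpl22l1 did not pass in any comparison, at 2.602 ± 0.524, 3.65 ± 0.971 and 5.19 ± 1.34 CPM in Olfr1507, Olfr73 and Olfr160 (mean ± SD, n = 3). Per length the paralogue had 1.13, 1.46 and 1.39 times the TPM of Rpl22 in Olfr1507, 3.14, 1.98 and 3.82 in Olfr73 and 1.89, 1.34 and 1.09 in Olfr160. Each Olfr73 ratio lay above each of the other 6, though Rpl22l1 rests on 37 to 135 counts per library. Rpl36al and Rps27l did not pass either, at 4.74 ± 0.118, 4.74 ± 1.45 and 6.21 ± 0.994 CPM and at 2.69 ± 0.699, 4.09 ± 1.148 and 4.86 ± 0.574 CPM (mean ± SD, n = 3).

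**Figure D5:**
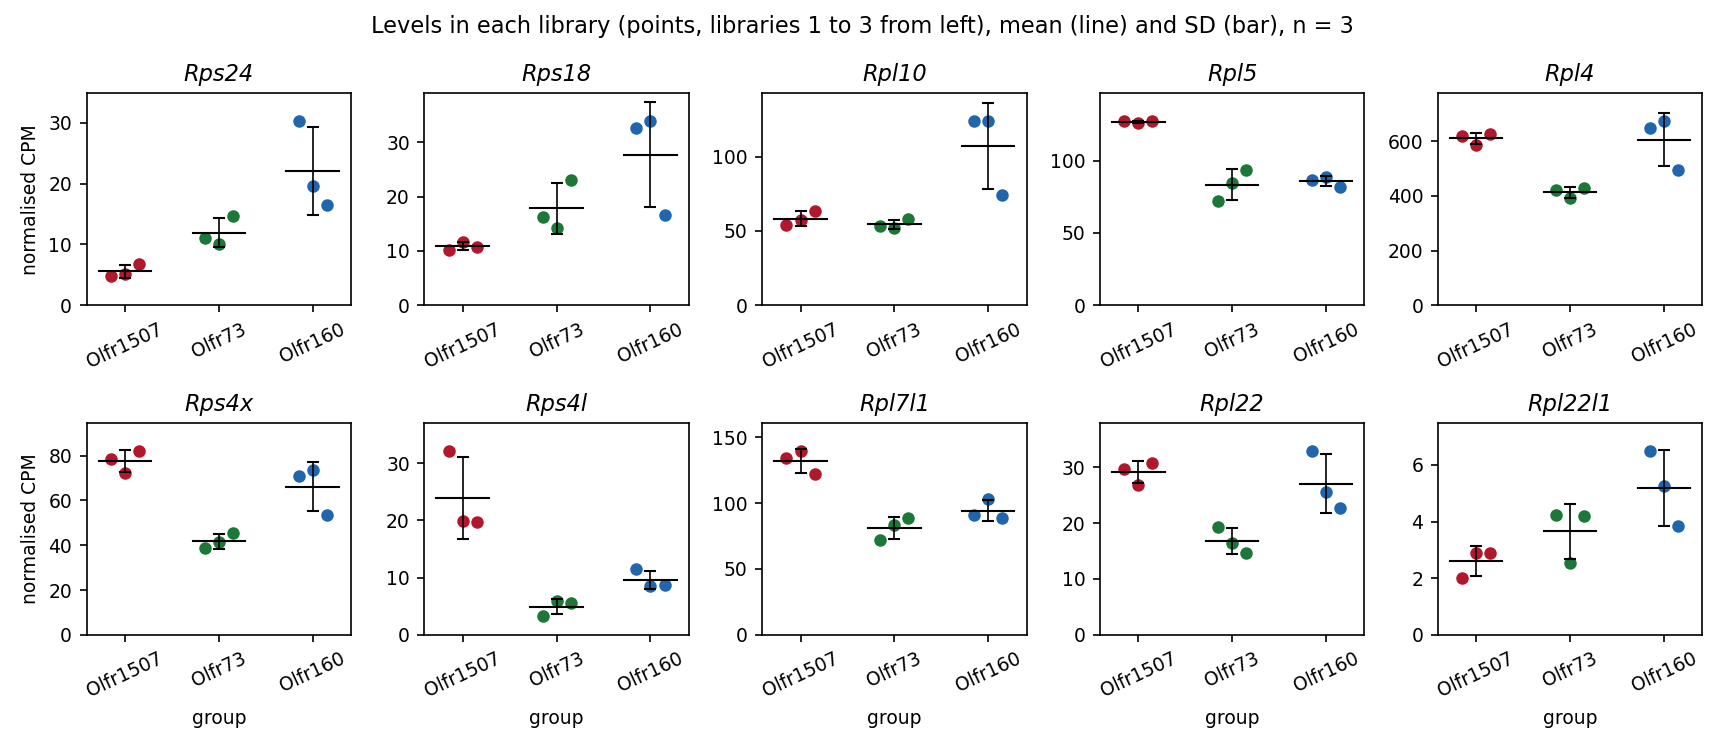
Normalised CPM of 10 genes in each library (points, libraries 1 to 3 of a group from left to right), with the mean (line) and SD (bar) of 3 libraries; each axis starts at 0. Rps24 is lowest in Olfr1507, Rps4l and Rpl5 are highest there (a direction that turns with scaling to olfactory transduction genes for both over Olfr160 and for Rpl5 over Olfr73), and Rpl4 and Rps4x are lowest in Olfr73.

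The symbol rule leaves out some ribosomal proteins. Fau, which is made as a fusion to a ubiquitin-like protein, and Rack1, a scaffold on the 40S head, did not pass in any of the 3 comparisons by edgeR. Fau stood at 13.9 ± 2.38, 14.5 ± 0.948 and 17.8 ± 3.65 CPM in Olfr1507, Olfr73 and Olfr160, and Rack1 at 65.5 ± 1.17, 58.4 ± 3.96 and 75.5 ± 14.2 CPM (mean ± SD, n = 3).

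Other genes of the pathway were called in both directions across the 3 comparisons, and some of the splits turned with the scaling. Of 15 translation factors and other genes known for a TOP messenger, 5 were higher and 2 lower in Olfr1507 than in Olfr160, 9 were higher and 6 did not pass against Olfr73, and 3 were lower and 12 did not pass in Olfr73 against Olfr160. The first split, of higher and lower calls, was 1 and 7 with library size alone and 0 and 14 when libraries were scaled to olfactory transduction genes. The second was 1 and 0, and 0 and 2, and the third 0 and 5, and 0 and 12. Over all tested genes library size alone gave 8.19%, 6.38% and 5.23% higher and 38.2%, 28.7% and 11.8% lower in the 3 comparisons. The transduction scaling gave 0.732%, 2.21% and 0.573% higher and 84.1%, 52.7% and 32.2% lower. As shares of the list, 33.3% were higher and 13.3% lower than in Olfr160 beside 20.7% and 27.7% of all tested genes, 60% were higher than in Olfr73 beside 14.5%, and 20% were lower in Olfr73 than in Olfr160 beside 10.5%. Eef1a1, the factor that carries aminoacyl-tRNA to the ribosome, followed the Olfr160 libraries at 1830, 1982 and 1240 CPM, against 910, 789 and 921 CPM in Olfr1507 and 673, 486 and 632 CPM in Olfr73. Its log2 fold changes against Olfr160 were -0.95 ± 0.19 for Olfr1507 and -1.50 ± 0.19 for Olfr73 (SE; edgeR adjusted p = 0.00343 and 0.00282). Nap1l1, a histone chaperone with a TOP messenger, went the other way and was higher in Olfr1507 than in Olfr160 by 0.78 ± 0.092 (SE; edgeR adjusted p = 0.000183; -0.77 with scaling to olfactory transduction genes).

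Ribosome biogenesis genes, 26 tested, were higher for 9 and lower for 2 in Olfr1507 than in Olfr160, higher for 8 and lower for 2 than in Olfr73, and higher for 2, with 24 not passing, in Olfr73 than in Olfr160. With library size alone these splits were 0 and 7, 3 and 3, and 2 and 0, where 38.2%, 28.7% and 11.8% of all tested genes were lower. With the transduction scaling they were 0 and 26, 0 and 10, and 0 and 16, where 84.1%, 52.7% and 32.2% were lower. The shares higher were 34.6%, 30.8% and 7.69% beside 20.7%, 14.5% and 7.45% of all tested genes, the last near the background, and the shares lower in the first 2 comparisons were 7.69% each beside 27.7% and 19.9%. Nob1, the nuclease that makes the final cut of 18S ribosomal RNA in the pre-40S particle, stood at 20.7, 21.3 and 22.2 CPM in Olfr1507, 131, 123 and 141 CPM in Olfr73 and 61.4, 66.4 and 79.8 CPM in Olfr160. The 3 ranges did not overlap, with log2 fold changes for Olfr1507 of -2.62 ± 0.13 over Olfr73 and -1.69 ± 0.12 over Olfr160 (SE; edgeR adjusted p = 3.61e-06 and 1.82e-05). Nop56, of the box C/D particles that methylate ribosomal RNA, was also lower in Olfr1507 than in Olfr73, by -0.73 ± 0.12 (SE; edgeR adjusted p = 0.00197). Nop2, a ribosomal RNA methyltransferase, was higher in Olfr1507 by 0.73 ± 0.12 over either group (SE; edgeR adjusted p = 0.00145 and 0.00254), values of -0.82 over Olfr160 and -0.11 over Olfr73 with the transduction scaling.

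Of 19 tested genes of mTORC1 and the S6 kinases, 8 were higher and 2 lower in Olfr1507 than in Olfr160, 3 higher and 2 lower than in Olfr73, and 5 higher, with 14 not passing, in Olfr73 than in Olfr160. The splits were 5 and 6, 0 and 4, and 5 and 0 with library size alone, where 38.2%, 28.7% and 11.8% of all tested genes were lower. They were 0 and 16, 0 and 12, and 0 and 2 with the transduction scaling, where 84.1%, 52.7% and 32.2% were lower. Higher calls made up 42.1%, 15.8% and 26.3% of the list beside 20.7%, 14.5% and 7.45% of all tested genes, the second near the background, and lower calls 10.5% in the first 2 comparisons beside 27.7% and 19.9%. Rptor, the subunit of mTORC1 that binds its substrates, was highest in Olfr73 at 54.6, 56.8 and 65.2 CPM, against 17.9, 21.3 and 26.0 CPM in Olfr1507 and 26.3, 34.4 and 39.8 CPM in Olfr160. It was lower in Olfr1507 than in Olfr73 by -1.44 ± 0.19 (SE; edgeR adjusted p = 0.000718). Tsc2, which restrains mTORC1, was higher in Olfr1507 than in Olfr160 by 0.81 ± 0.12 (SE; edgeR adjusted p = 0.000699; -0.72 with the transduction scaling).

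Mitochondrial ribosomal protein genes set a contrast within the same libraries. Of 75 tested, 26 were higher in Olfr1507 than in Olfr160 and 49 did not pass, with a median log2 fold change of 0.30, where the cytosolic genes had 4 higher, 26 lower and a median of -0.49. Against Olfr73, 14 were higher and 1 lower in Olfr1507, with a median of 0.18. In Olfr73 against Olfr160, 3 were higher and 72 did not pass, with a median of 0.12. The balance of calls turned in the first 2 comparisons with library size alone, and in all 3 with the transduction scaling. With library size alone the splits were 1 higher and 8 lower, 1 and 10, and 2 and 0, where 38.2%, 28.7% and 11.8% of all tested genes were lower. With the transduction scaling they were 0 and 73, 0 and 34, and 0 and 17, where 84.1%, 52.7% and 32.2% were lower. The shares higher were 34.7%, 18.7% and 4% beside 20.7%, 14.5% and 7.45% of all tested genes. For Olfr1507 over Olfr160 the mitochondrial medians were then -0.12 and -1.25, beside -0.91 and -2.11 for the cytosolic genes. Mrpl39 was higher in Olfr1507 than in Olfr160 by 0.90 ± 0.15 and Mrpl44 higher than in Olfr73 by 0.74 ± 0.11 (SE; edgeR adjusted p = 0.00114 and 0.00129), values of -0.65 and -0.11 with scaling to olfactory transduction genes. Mrpl3 was lower in Olfr1507 than in Olfr73 by -1.82 ± 0.40 (SE; edgeR adjusted p = 0.00797), the 1 lower call of the list.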

How the data were processed

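Per the submitters' processing notes, the authors used STAR 2.6.1, RSEM 1.3.1 and DESeq2 (no version listed) with genome build mm10; the annotation release is not given in the sources used here (GENCODE M21 served for coordinates). One deposited table holds the expected counts that RSEM estimated for the authors, and another their TPM. Per the labels, libraries came from a low-input kit with a lengthened insert; strand use in counting is not stated there. Columns carry older receptor names, matched to the groups through synonyms in the RefSeq gene table.

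Tests used edgeR 4.0.16 (R 4.3.3) on the expected counts after rounding (filterByExpr by group, TMM, robust quasi-likelihood F test, all 9 libraries, means model by group), with Benjamini-Hochberg adjustment over 16399 genes and a threshold of 0.05. A printed SE is the absolute log2 fold change over the square root of its F statistic. The script was tested on simulated data. Alternatives used DESeq2 1.42.0 and limma 3.58.1 and other scalings, filters, counting of copies and left-out libraries. Descriptions used pandas 2.3.3, numpy 2.4.6, scipy 1.17.1 and matplotlib 3.10.9 under Python 3.11.15. Coordinates and transcripts are from GENCODE M21, in which 98.7% of the table's transcript identifiers were found. Sequence sharing was counted in exact 50-base windows of the median coding transcript. Libraries of a group differed by more than sampling noise (chi-square per degree of freedom of 20.0 or more), so none was counted as a repeat.

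The members and gene lists were chosen with earlier results of these data known. Named genes were, per comparison, up to 6 called members in each direction with the largest change; the paralogues, the P stalk, Rpl5, Rpl11, Rpsa, Rps6 and Rps24; the 3 highest and 3 lowest by TPM; Fau and Rack1, outside the symbol rule; and up to 2 genes of each other list. Of these the text names part, and some genes are not reported here.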

Additional observations from a re-analysis of the deposited data

How the results depend on the processing

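Counts of called genes are given as higher then lower, for Olfr1507 over Olfr160, Olfr1507 over Olfr73 and Olfr73 over Olfr160, where the text has 4 and 26, 6 and 2, and 0 and 15. RLE size factors gave 4 and 32, 6 and 2, 0 and 23, library size alone 1 and 62, 3 and 5, 0 and 23, and scaling to olfactory transduction genes 0 and 81, 1 and 28, 0 and 54. No low-count filter gave 4 and 24, 6 and 1, 0 and 16, and a filter of 5 CPM in 3 libraries 3 and 32, 6 and 3, 0 and 26. DESeq2 gave 4 and 40, 6 and 3, 0 and 35, limma-voom 4 and 23, 6 and 1, 0 and 20, and limma-trend on log2(TPM + 1) 2 and 54, 4 and 0, 1 and 42, or with a pseudocount of 0.1, 2 and 55, 5 and 0, 1 and 41. Over all genes these methods called 12.8% to 21.8% higher and 27.4% to 33.2% lower in the first comparison. They called 8.66% to 16.4% and 13.8% to 25.2% in the second, and 6% to 9.4% and 15.4% to 18.9% in the third. Fitting only the 6 libraries compared gave 4 and 33, 8 and 2, 0 and 3, and an adjusted p of 0.01 gave 3 and 6, 6 and 0, 0 and 0. Olfr160 library 3 alone, chosen after seeing the data, gave 3 and 1, 9 and 1, 0 and 0, with the lone library assumed to vary like the other groups. TMM without the ribosomal protein genes, unrounded counts, and sums with -ps and -rs rows or with processed pseudogenes stayed within 1.5 times of each count. Leaving out 1 library at a time gave 3 to 4 higher and 10 to 38 lower, 6 to 11 higher and 0 to 2 lower, and 0 higher and 1 to 38 lower. Over all tested genes these fits gave 15.4% to 21.2% higher and 20.8% to 30.4% lower in the first comparison. They gave 9.01% to 15.1% and 12% to 18.7% in the second, and 1.88% to 8.48% and 3.88% to 10.1% in the third. The mean share of the 94 genes was 1.28%, 1.29% and 2.05% of TPM in Olfr1507, Olfr73 and Olfr160, against 0.256%, 0.267% and 0.421% of counts.

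With the replicate number as a block the counts were 4 and 16, 6 and 1, 0 and 6. The labels do not say that a number marks a shared animal or day, and deviations of same-numbered libraries had correlations of -0.22 to 0.027, 0.014 to 0.12 and 0.058 to 0.14 in the 3 comparisons, so the numbers were not taken as pairs.

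Of 1584 values of 61 called pairs of gene and comparison under 26 alternatives, 1313 kept their call, 246 kept only their direction and 25 changed sign. Of the sign changes, 22 came with scaling to olfactory transduction genes, a list that itself differed between the groups. The cause was not tested. With scaling to olfactory transduction genes the log2 fold changes of Olfr1507 over Olfr160 became -1.17 for Hnrnpa1 (with library size alone -0.012), -0.65 for Mrpl39, -0.99 for Mrpl44, -0.77 for Nap1l1, -0.82 for Nop2, -0.79 for Rpl29, -1.005 for Rpl5, -1.08 for Rpl7l1, -0.28 for Rps4l and -0.72 for Tsc2. Those of Olfr1507 over Olfr73 became -0.30 for Eef1a1, -0.14 for Hnrnpa1, -0.26 for Mrpl39, -0.11 for Mrpl44, -0.33 for Nap1l1, -0.11 for Nop2, -0.057 for Rpl22, -0.28 for Rpl4, -0.23 for Rpl5, -0.14 for Rpl7l1 and -0.28 for Tsc2, and that of Nop56 in Olfr73 over Olfr160 became -0.15. Rpl29 over Olfr160 became -0.26 in the sum with pseudogenes, and Rplp0 became 0.011 with Olfr160 library 3 alone. Depth limits 24 core genes with under 100 counts in at least 1 library, 17 of the shorter and 7 of the longer set.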
